A study of Prunus avium with 21 samples.

Results

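Differences between hydrogen cyanamide-treated and water-treated flower buds of sweet cherry were averaged here over 1, 3, and 6 days after treatment (dat), to separate transcripts that moved the same way at all days from those carried by a single day. The average rests on 18 of the 21 libraries of the series, 9 from hydrogen cyanamide-treated and 9 from water-treated buds, and the 3 libraries of untreated buds of day 0 are given only as background. For each transcript the treated minus water difference in log2(FPKM + 0.5) was taken at each day, and the 3 differences were averaged with equal weight. FPKM is the number of sequenced fragments scaled by transcript length and by the mapped total of the library, and the added 0.5 lowers the differences of transcripts near or under that level.

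Cut branches of 3 neighbouring *Prunus avium* trees of the cultivar 'Burlat', grafted on *Prunus mahaleb*, were sprayed with 2% Dormex, whose active compound is hydrogen cyanamide, or with deionized water, and were kept in a warm growth chamber under constant light. Each library came from the pooled flower buds of 1 branch of 1 tree, at mixed stages of opening, and the trees carry the numbers 4, 5, and 6 in the labels. Day 0 buds were collected before treatment and at another time of day. Since whole buds were sampled, fewer cells of a type and less RNA per cell cannot be told apart, and neither can a response to the compound and a difference in bud stage between treated and water buds of the same day.

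Dormant buds of fruit trees resume growth only after a period of chilling, and hydrogen cyanamide is sprayed in orchards to bring bud break forward. The compound is known to inhibit catalase and to disturb respiration, and plants meet such reactive chemicals with reductases, glutathione S-transferases, glycosyltransferases, and membrane transporters that modify and remove them. Cyanide, which plants also make themselves as a by-product of ethylene synthesis, is joined to cysteine by L-3-cyanoalanine synthase (*CAS*) and then hydrolysed by a nitrilase.

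FPKM summed to 697927 to 760090 in treated and to 692389 to 729874 in water libraries. Of the 18 libraries, 17 had their highest correlation with a replicate of the same treatment and day, and the water library of tree 4 at 3 dat was closest to a water library of 1 dat. Within groups the correlations of log2 levels across transcripts ran from 0.884 to 0.909.

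Of the 112043 assembled transcripts, 62976 averaged 0.5 FPKM or more in the 18 libraries and entered 1 limma fit. The word called is used for an average difference of 1 or more in size on the log2 scale with a Benjamini-Hochberg adjusted p no greater than 0.05. In treated buds 2050 transcripts of 1470 assembled genes were called higher, which is 3.26% of those tested, and 1088 of 922 assembled genes were called lower, which is 1.73%. The 3138 calls (4.98% of those tested) were thus 65.3% on the higher side. After rescaling the libraries by median ratios, which moved the median of all transcripts from -0.08 to 0.01, the calls were 2208 higher and 704 lower, 75.8% on the higher side. With a pseudocount of 0.1 FPKM they were 2465 higher and 2018 lower (55%), and on the mean of 3 and 6 dat alone 57.9% were on the higher side.

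Most called transcripts kept their direction. The difference had the same sign at 1, 3, and 6 dat in 1913 of the 2050 called higher (93.3%) and in 1027 of the 1088 called lower (94.4%), against 42.8% of all tested, and a call on the average itself favours transcripts with 1 sign. Among those called higher, 753 (36.7%) stood at least 1 higher on the log2 scale at each of the 3 days, against 1.22% of all tested, 1081 at 2 days, and 216 at 1 day. Among those called lower, 242 (22.2%) stood at least 1 lower at each day, against 0.43% of all tested, 640 at 2 days, and 206 at 1 day. All 9 treated libraries lay above all 9 water libraries in 512 of the transcripts called higher (25%), against 1.24% of all tested, and below them in 71 of those called lower (6.53%), against 0.389%. These shares rest on the same values as the calls. A difference of at least 1 at each day gives an average of at least 1. Of the 768 such higher transcripts 753 were called, and of the 271 lower ones 242.

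The days did not carry equal weight in both directions. The largest difference fell on 1 dat in 1049 of the transcripts called higher, on 3 dat in 557, and on 6 dat in 444. In the transcripts called lower it fell on 1 dat in 233, on 3 dat in 438, and on 6 dat in 417. The median difference of those called higher was 1.73 at 1 dat, 1.63 at 3 dat, and 1.26 at 6 dat, and that of those called lower was -1.08, -1.38, and -1.32.

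**Figure D1:**
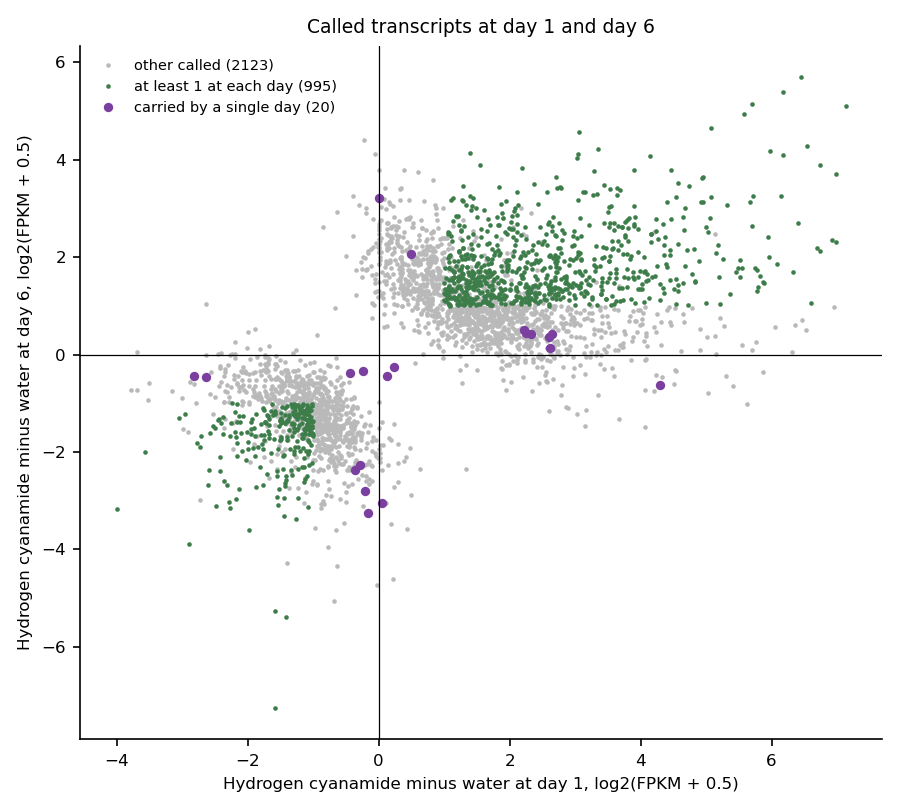
Treated minus water difference in log2(FPKM + 0.5) of the 3138 called transcripts, with 1 dat on the x axis and 6 dat on the y axis and 1 point per transcript. Green points are the 995 transcripts at least 1 in the called direction at each day, purple points the 20 carried by a single day and grey points the others, and most points lie in the upper right and lower left quadrants.

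Because the libraries of a day are separate samples, each day could be set against a call made on the other days, a comparison added after the data were seen. Of 1906 transcripts called higher on the mean of 3 and 6 dat (3.03% of those tested), 986 (51.7%) stood at least 1 higher at 1 dat, against 5.76% of all 62942 tested. For 1758 called higher without 3 dat (2.8% of those tested) this share was 73% at 3 dat against 6.79%, and for 2230 called higher without 6 dat (3.55%) it was 42% at 6 dat against 4.66%. The transcripts called lower, 2.2% of those tested without 1 dat, 1.42% without 3 dat, and 1.94% without 6 dat, had smaller shares. Of these, the share at least 1 lower at the day left out was 23.3% of 1386 at 1 dat, 45.4% of 893 at 3 dat, and 30.8% of 1220 at 6 dat, against 5.2%, 6.54%, and 7.15% of all tested. Of the 3138 transcripts called on the 3 days, 1262 (40.2%) were also called on each mean of 2 days, while 434 were lost only without 1 dat, 345 only without 3 dat, and 289 only without 6 dat.

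**Figure D2:**
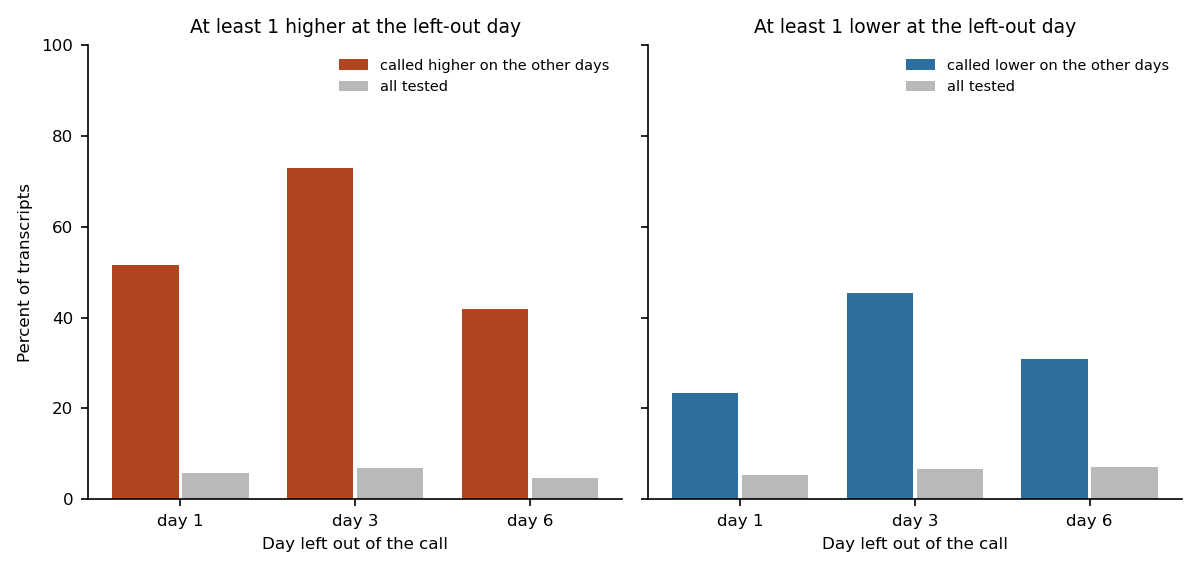
Share of transcripts that stood at least 1 higher (left) or lower (right) on the log2 scale at the day left out of the call. Coloured bars are transcripts called on the mean of the other days and grey bars are all tested transcripts, and the coloured bars reach 73% at 3 dat on the left and 45.4% at 3 dat on the right.

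The table lists isoforms separately, and the authors' software divided reads shared by isoforms or close copies between them, so values of single isoforms and of gene family members are uncertain. When the isoforms of each assembled gene were summed, 1602 of the 2050 transcripts called higher (78.1%) belonged to a gene that was also called higher, and 534 of the 1088 called lower (49.1%) to a gene called lower. For the transcripts at least 1 off at each day these shares were 86.2% and 63.2%. Below, the average of the summed gene is given where a called isoform belongs to a gene that was not called, and for some others.

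The gene lists hold only transcripts with a description, which lean to the higher side. Of the 3454 described transcripts tested, 1447 were called higher (41.9%) and 241 lower (6.98%), and their median average was 0.85, against -0.08 over all tested. The counts and medians of the lists stand beside these values. List members are transcripts, and several members can be isoforms of 1 assembled gene.

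The list of carbonyl and quinone reductases had 18 of 33 tested members called higher (54.5%) and 1 lower, with a median average of 1.26 on the log2 scale. The 2-alkenal reductase TR26840|c9_g2_i1, an enzyme that saturates reactive aldehydes and ketones with NADPH, stood at 624, 796, and 865 FPKM in treated buds of trees 4, 5, and 6 at 1 dat, against 7.18, 3.19, and 5.06 FPKM in water buds. At 3 dat it had 155, 606, and 68.2 FPKM against 1.33, 4.16, and 2.47 FPKM, and at 6 dat 230.3, 60.2, and 65.5 FPKM against 4.69, 2.10, and 1.22 FPKM. Its lowest treated library thus lay above its highest water library, and the average difference was 6.07 (SE 0.39, adjusted p = 5.64e-08). Another 2-alkenal reductase (TR38019|c1_g1_i1), the only isoform of its assembled gene, ran from 6.96 to 111 FPKM with a median of 59.9 in treated buds and from 0 to 0.973 FPKM with a median of 0.245 in water buds. Its differences of 6.44, 5.50, and 5.70 at 1, 3, and 6 dat were among the steadiest at this size (average 5.88, SE 0.41, adjusted p = 1.32e-07), and a transcript with the same description (TR26840|c10_g1_i1) averaged 5.68.

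*DJ-1 homolog D* (TR26924|c2_g2_i3), of a family tied to protection from oxidative damage, had the highest average of the transcripts named here, 6.16 (SE 0.43, adjusted p = 1.34e-07), but the sum of its 6 isoforms averaged 1.70. A *NADPH:quinone oxidoreductase* isoform (TR12429|c2_g1_i5) averaged 5.69 and its 8 isoforms together 2.00. A 2-methylene-furan-3-one reductase (TR25493|c0_g1_i4) ran from 3.71 to 118 FPKM with a median of 25.6 in treated and from 0.0255 to 0.748 FPKM with a median of 0.271 in water buds, without overlap. Its differences were 6.91, 5.71, and 2.35 at 1, 3, and 6 dat (average 4.99, SE 0.29, adjusted p = 2.82e-08).

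Most described transcripts of enzymes that tag foreign compounds were called higher, as were 41.9% of all described transcripts. Of 48 tested glutathione S-transferases, which couple glutathione to reactive molecules, 40 were called higher and 8 did not pass (median 2.01). The 48 were transcripts of 24 assembled genes, and the 40 of 21. One of the 40 (TR33680|c0_g4_i3) ran from 12.0 to 146 FPKM with a median of 48.1 in treated and from 0.198 to 3.61 FPKM with a median of 1.17 in water buds (average 4.91, SE 0.30, adjusted p = 4.31e-08). Of 117 tested UDP-glycosyltransferases, which attach sugars to small molecules, 99 were called higher and 4 isoforms of 1 assembled gene lower (median 1.96), and 64 of the 99 were at least 1 higher at each day. The 117 were transcripts of 55 assembled genes, and the 99 of 46. The 4 lower isoforms included TR13302|c2_g1_i8, with 0.0329 to 38.4 FPKM (median 4.25) in treated and 4.64 to 76.3 FPKM (median 61.1) in water buds (average -3.003, SE 0.29, adjusted p = 2.79e-06), while its gene averaged -1.47. *UGT85A19*, annotated with the family that makes cyanogenic glucosides, rose further with time. Its levels were 3.15, 1.94, and 3.93 FPKM in treated and 0.592, 0.717, and 1.13 FPKM in water buds at 1 dat, and 29.2, 26.6, and 62.1 FPKM against 3.33, 3.54, and 3.30 FPKM at 6 dat. The difference was 1.395 at 1 dat, 2.60 at 3 dat, and 3.25 at 6 dat (average 2.42, SE 0.17, adjusted p = 1.20e-07), and the test between days missed the threshold (adjusted p = 0.0613).

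Of 75 tested cytochrome P450 enzymes, oxidases of hormone and defence metabolism, 43 were called higher and 4 lower (median 1.36). *CYP749A22* (TR13666|c4_g1_i3) ran from 28.6 to 125 FPKM in treated and from 0.752 to 16.6 FPKM in water buds (average 3.68, SE 0.32, adjusted p = 8.26e-07). A *CYP78A5*-like transcript (TR40111|c0_g1_i1), of a family that affects organ size in *Arabidopsis*, was the lowest called, with 0.619 to 21.8 FPKM (median 5.52) in treated and 4.80 to 27.1 FPKM (median 16.03) in water buds (average -1.39, SE 0.20, adjusted p = 0.000134). Of 59 ABC and MATE transporters, which export compounds from the cytosol, 25 were called higher (42.4%) and 3 lower (median 0.90), which is near the share and median of all described transcripts. The pleiotropic drug resistance protein 7 (TR37696|c0_g1_i1) had at most 13.7 FPKM in treated and 0.116 FPKM in water buds, without overlap, and its difference shrank from 4.46 at 1 dat to 0.61 at 6 dat (average 2.47).

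**Figure D3:**
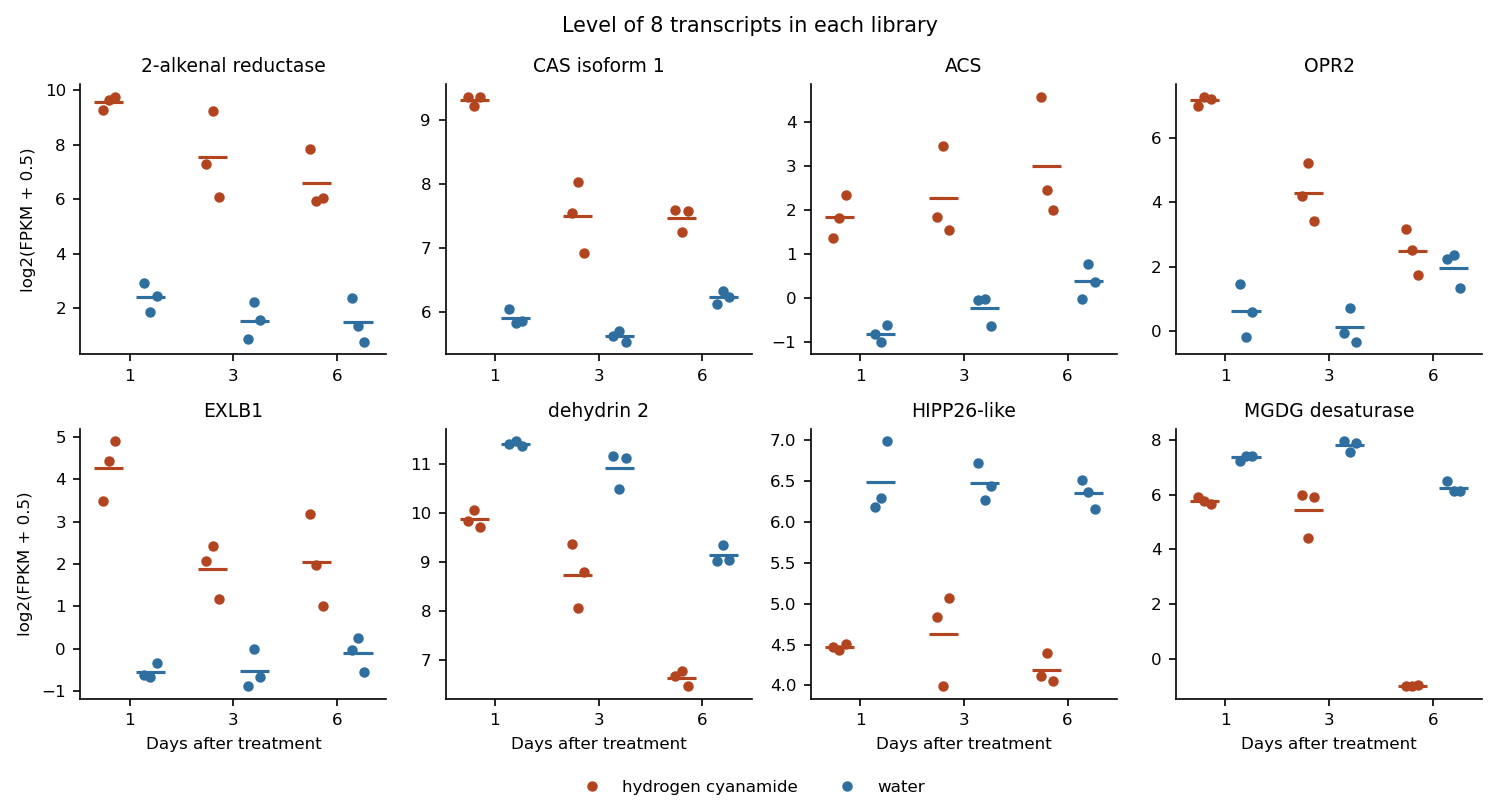
Level of 8 transcripts in log2(FPKM + 0.5) on the y axis at 1, 3, and 6 dat on the x axis, with 1 point per library, treated buds in red on the left and water buds in blue on the right of each day, and a line at the mean of the 3 libraries. Each panel has its own scale. The first 5 transcripts were called higher and the last 3 lower in treated buds, and at 6 dat the treated and water libraries of *OPR2* overlap.

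The list of cyanide release and detoxification had 5 of 8 tested transcripts called higher and 3 that did not pass (median 1.67). The 8 transcripts came from 4 assembled genes, and the 5 called higher from 3. *MDL1*, a mandelonitrile lyase that frees cyanide from a cyanohydrin, ran from 23.3 to 162 FPKM with a median of 40.7 in treated and from 2.07 to 12.5 FPKM with a median of 3.46 in water buds. Its differences of 3.69, 2.94, and 3.37 were alike over the days (average 3.33, SE 0.34, adjusted p = 4.64e-06, and adjusted p = 0.893 between days). The main *CAS* isoform (TR10732|c0_g1_i1), which holds 98.3% of the FPKM of its gene, ran from 121 to 659 FPKM with a median of 192 in treated and from 45.9 to 80.2 FPKM with a median of 57.6 in water buds. All treated libraries lay above all water libraries, and the average was 2.18 (SE 0.11, adjusted p = 6.77e-09). The difference of *CAS* (TR10732|c0_g1_i1) shrank from 3.401 at 1 dat to 1.25 at 6 dat (adjusted p = 0.00199 between days) and so was still over 1 at each day. *CAS* isoform 2 averaged 2.08, isoform 4 averaged 0.90 and was not called (but was at 1.05 and 1.01 without treated tree 6 at 3 dat or water tree 6 at 6 dat), and isoform 3, with a mean of 0.444 FPKM in treated and 0.11 FPKM in water buds, was too low to be tested. *NIT4A*, the nitrilase that acts after *CAS*, was above water in every treated library (86.8 to 243 against 67.1 to 82.1 FPKM), but its average of 0.89 (SE 0.08, adjusted p = 7.96e-07) stayed under the threshold of 1. *BGD*, a cyanogenic beta-glucosidase, averaged 1.90 (SE 0.24, adjusted p = 3.00e-05), and the 6 isoforms of its gene together 0.72.

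Of the ethylene genes, 12 of 13 tested members were called higher and 9 of these stood at least 1 higher at each day (median 1.70). The enzymes follow one another in the pathway. S-adenosylmethionine synthase makes the precursor, 1-aminocyclopropane-1-carboxylate synthase (*ACS*) commits it to ethylene, and the oxidase releases ethylene together with cyanide. The transcript that the study named *ACO* is described as a homolog 1-like of this oxidase, and whether it has this activity was not tested. The starts of the reading frames of *SAMS 3*, *ACS*, *ACO*, the expansin *EXLB1*, and *OPR2* of the jasmonate list are shown. They serve to identify these transcripts, since the assembly gives only running numbers and no genome position was used. They are 60 bases from the first codon (ATG in capitals) of the longest open frame in the first 399 bases of the authors' transcripts, 5′ to 3′.
SAMS 3: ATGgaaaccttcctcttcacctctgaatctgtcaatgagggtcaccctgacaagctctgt
ACS: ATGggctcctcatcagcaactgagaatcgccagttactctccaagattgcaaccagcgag
ACO: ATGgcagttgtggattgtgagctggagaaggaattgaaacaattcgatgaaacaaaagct
EXLB1: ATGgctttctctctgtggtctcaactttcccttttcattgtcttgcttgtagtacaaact
OPR2: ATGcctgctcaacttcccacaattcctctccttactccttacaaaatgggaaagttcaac

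*ACS* stood at 2.07, 3.01, and 4.58 FPKM in treated buds of trees 4, 5, and 6 at 1 dat, against 0.0633, 0, and 0.153 FPKM in water buds. At 3 dat it had 3.10, 10.6, and 2.40 FPKM against 0.47, 0.488, and 0.145 FPKM, and at 6 dat 23.5, 4.99, and 3.49 FPKM against 0.49, 1.22, and 0.793 FPKM. The levels were low, yet the 9 treated libraries did not overlap the 9 water libraries, and the differences were 2.65, 2.52, and 2.63 (average 2.60, SE 0.34, adjusted p = 4.30e-05). *SAMS 3* ran from 43.0 to 86.8 FPKM with a median of 72.3 in treated and from 10.2 to 30.2 FPKM with a median of 13.2 in water buds (average 1.98, SE 0.10, adjusted p = 1.04e-08). *ACO* ran from 3.08 to 37.0 FPKM with a median of 18.7 in treated and from 0.22 to 2.36 FPKM with a median of 0.517 in water buds (average 3.69, SE 0.22, adjusted p = 3.44e-08). *SAMS 3* and *ACO* differed less at later days, with 2.69 at 1 dat and 1.24 at 6 dat for *SAMS 3* and 5.52 and 1.59 for *ACO* (adjusted p = 0.0178 and 0.00422 between days), and stayed over 1 at each day.

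Jasmonate genes, of a hormone of wounding and defence, had 50 of 59 tested members called higher (84.7%, against 41.9% of all described transcripts). The other 9 did not pass, the median was 2.02, and the differences were uneven over the days. The 59 were transcripts of 35 assembled genes, and the 50 of 28. The median difference of the 59 was 3.73 at 1 dat, 2.05 at 3 dat, and 0.51 at 6 dat. Of the 50, 27 were also called in the test between days, and 15 were at least 1 higher at each day. *OPR2* (TR13558|c2_g1_i1) is described as 12-oxophytodienoate reductase 2-like, and whether it acts in jasmonate synthesis was not tested. It stood at 126, 153, and 147 FPKM in treated buds at 1 dat, against 2.24, 0.387, and 0.996 FPKM in water buds. At 6 dat it had 8.46, 5.17, and 2.87 FPKM against 4.17, 4.63, and 2.02 FPKM, and these libraries overlapped. Its differences were 6.53, 4.15, and 0.50 (average 3.73, SE 0.28, adjusted p = 2.33e-07, and adjusted p = 0.00126 between days). *AOS* and *AOC*, which the study places in jasmonate synthesis, stayed under the threshold of 1 in the main fit. *AOS* averaged 0.95 with no overlap between treated (13.5 to 24.5 FPKM) and water libraries (5.01 to 13.4 FPKM), and 1.02 with a call when treated tree 6 at 6 dat or water tree 5 at 3 dat was left out. *AOC* averaged 0.82, and the beta-oxidation gene *ACX4* averaged 0.83 (SE 0.06).

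Sulfur assimilation, which supplies the cysteine that *CAS* and glutathione use, had 10 of 19 tested members called higher and 9 that did not pass (median 1.15). *ATP sulfurylase 1* (TR11448|c3_g1_i1), its first enzyme, ran from 59.3 to 174 FPKM with a median of 130 in treated and from 14.2 to 34.8 FPKM with a median of 16.7 in water buds (average 2.40, SE 0.16, adjusted p = 7.41e-08). Among 25 thiol redox and peroxide enzymes 10 were called higher and 3 lower (median 0.95). *Thioredoxin H2* (TR2435|c0_g1_i1) ran from 39.2 to 107 FPKM in treated and from 4.78 to 37.99 FPKM in water buds (average 2.30, SE 0.15), and the glutaredoxin *GRX* from 190 to 866 FPKM against 90.7 to 130 FPKM (average 1.76, SE 0.13). The 3 lower ones included *CAT1*, a catalase that breaks down hydrogen peroxide, and *Mn-SOD*, a mitochondrial superoxide dismutase. The *CAT1* isoform named in the study had 0.483 to 6.497 FPKM in treated and 2.49 to 11.8 FPKM in water buds (average -1.15, SE 0.25, adjusted p = 0.00361). It holds 1.5% of the FPKM of its gene, whose 11 isoforms together averaged -0.09 (adjusted p = 0.426), and its average came to -0.98 when treated tree 4 at 3 dat was left out. *Mn-SOD* had a day 0 median of 51.7 FPKM. It ran from 41.3 to 86.3 FPKM with a median of 59.2 in treated and from 83.0 to 178 FPKM with a median of 146 in water buds (average -1.03, SE 0.08, adjusted p = 4.12e-07), and its gene averaged -0.999 and was not called. Its average lay close to the threshold, at -0.92 after rescaling by median ratios and at -0.98, -0.993, and -0.996 when treated tree 5 at 3 dat, water tree 6 at 3 dat, or water tree 5 at 6 dat was left out, and it was called in none of these fits.

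**Figure D4:**
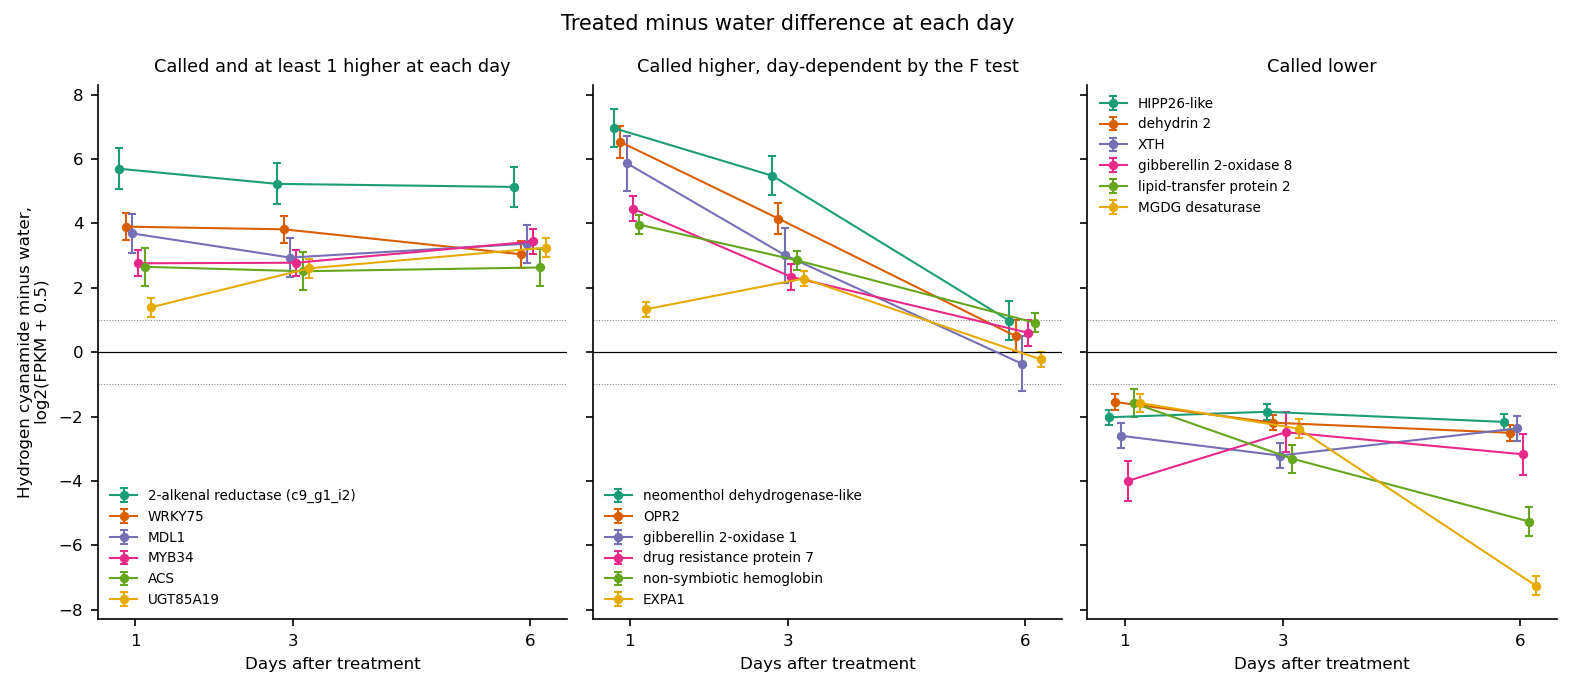
Treated minus water difference in log2(FPKM + 0.5) on the y axis at 1, 3, and 6 dat on the x axis for 18 transcripts, with bars of 1 SE from the limma fit and dotted lines at 1 and -1. On the left are transcripts at least 1 higher at each day, in the middle transcripts whose difference changed between days, with *OPR2* at 6.53 and 0.50 at 1 and 6 dat, and on the right transcripts called lower.

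Of 79 pathogenesis-related and defence proteins 52 were called higher, 5 lower, and 22 did not pass (median 1.38), and their median differences were 1.52, 1.69, and 1.30 at 1, 3, and 6 dat. A pathogen-related protein (TR9142|c0_g1_i4) ran from 16.6 to 76.5 FPKM with a median of 58.8 in treated and from 0.106 to 3.43 FPKM with a median of 0.706 in water buds (average 5.10, SE 0.30, adjusted p = 2.82e-08). An endochitinase (TR24251|c0_g1_i1), an enzyme against fungal cell walls, averaged 4.55 (SE 0.48). One of those lower, a basic endochitinase isoform (TR33030|c1_g1_i1), averaged -2.61, but it holds 6.8% of the FPKM of its gene, which averaged -0.17. Of 15 WRKY factors, regulators of defence genes, 11 were called higher, 7 of them at least 1 higher at each day, and 4 did not pass (median 1.22). *WRKY75* (TR14698|c0_g1_i1) ran from 10.8 to 40.5 FPKM with a median of 18.4 in treated and from 0.636 to 2.196 FPKM with a median of 1.25 in water buds, and its differences of 3.90, 3.82, and 3.04 averaged 3.59 (SE 0.24, adjusted p = 1.06e-07).

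Of 19 MYB factors 7 were called higher and 1 lower (median 0.75). *MYB34* (TR10621|c1_g2_i2), a regulator of indole glucosinolate synthesis in *Arabidopsis*, had differences of 2.76, 2.78, and 3.44 (average 2.99, SE 0.23, adjusted p = 2.73e-07), and *MYB108* of 2.38, 2.05, and 1.87 (average 2.10, SE 0.22, adjusted p = 5.86e-06), without overlap in either. The lower one, a myb-related protein 308 (TR24348|c0_g2_i1), of a type that represses phenylpropanoid genes in snapdragon, moved apart with time, with differences of -0.15, -1.12, and -2.19 (average -1.15, SE 0.12). Of 22 ERF factors, named after ethylene response, 8 were called higher and 4 lower (median 0.51). *ERF1B* (TR1005|c0_g1_i1) averaged 3.13 (SE 0.37). Another, *ERF027* (TR9281|c0_g1_i3), ran from 0.0630 to 5.62 FPKM with a median of 2.69 in treated and from 2.30 to 27.0 FPKM with a median of 21.8 in water buds (average -2.50, SE 0.15, adjusted p = 3.41e-08). Of 12 NAC factors 6 were called higher and 6 did not pass (median 1.01), led by *NAC2* (TR12984|c3_g2_i1) with differences of 5.13, 3.27, and 0.39 (average 2.93).

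Phenylpropanoid and flavonoid enzymes, which make phenolic compounds, had 70 of 105 tested members called higher and 3 lower (median 1.51). A feruloyl CoA ortho-hydroxylase 2 (TR13379|c5_g2_i1), of the enzymes that make coumarins, ran from 21.5 to 466 FPKM with a median of 180 in treated and from 1.81 to 5.15 FPKM with a median of 3.79 in water buds (average 4.93, SE 0.34, adjusted p = 1.10e-07), while the 12 isoforms of its gene together averaged 1.59. The lowest, a flavonoid 3'-methyltransferase (TR36640|c2_g2_i2), averaged -1.58 (SE 0.18). Cell wall enzymes and expansins, which loosen or build the wall during growth, had 51 of 73 tested members called higher and 3 lower (median 1.47). An early nodulin-75 transcript (TR789|c0_g1_i1), of a type of proline-rich wall protein, ran from 43.0 to 861 FPKM with a median of 73.2 in treated and from 3.06 to 6.01 FPKM with a median of 3.74 in water buds (average 4.58, SE 0.30, adjusted p = 7.48e-08). *EXLB1* ran from 1.51 to 29.3 FPKM with a median of 4.88 in treated and from 0.0399 to 0.70 FPKM with a median of 0.183 in water buds (average 3.13, SE 0.29, adjusted p = 1.60e-06).

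The other expansins differed from *EXLB1* in their course. *EXPA1* stood at 63.8, 60.2, and 57.9 FPKM in treated and 23.9, 18.8, and 29.7 FPKM in water buds at 1 dat, at 328, 289, and 459 FPKM against 51.7, 105, and 67.2 FPKM at 3 dat, and at 209, 215, and 269 FPKM against 281, 218, and 313 FPKM at 6 dat. Day 0 buds had a median of 13.3 FPKM and at most 14.5 FPKM, so that every treated and water library lay above day 0 from 1 dat on. Its average of 1.13 (SE 0.13, adjusted p = 1.78e-05) thus covers differences of 1.33, 2.29, and -0.22 (adjusted p = 0.00295 between days). *EXPA11* had a similar average of 1.12 from differences of 1.18, 1.93, and 0.25. Without 3 dat neither was called. A xyloglucan endotransglucosylase (TR7924|c0_g1_i6), which cuts and rejoins wall polymers, went the other way at each day, with 29.2 to 123 FPKM (median 94.7) in treated and 217 to 844 FPKM (median 543) in water buds (average -2.72, SE 0.22, adjusted p = 4.95e-07). Its day 0 median was 135 FPKM.

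Hormone genes other than those of ethylene and jasmonate were divided. Gibberellin genes had 4 of 18 tested members called higher and 8 lower (median 0.76), and 2 and 6 of these held at least 1 at each day. *Gibberellin 2-beta-dioxygenase 1* (TR11635|c0_g3_i1), of a family that inactivates the growth hormone gibberellin, ran from 15.0 to 162 FPKM in treated and from 0.73 to 74.1 FPKM in water buds, with differences of 5.87, 3.02, and -0.36 (average 2.85, SE 0.49, adjusted p = 0.000623, and adjusted p = 0.0335 between days). *Gibberellin 2-beta-dioxygenase 8* (TR12555|c3_g2_i16) ran from 0.000503 to 2.86 FPKM in treated and from 2.59 to 29.3 FPKM in water buds (average -3.21, SE 0.36, adjusted p = 1.12e-05). It is 1 of 21 isoforms, which together averaged -0.57. With a minimum mean of 1 FPKM in place of 0.5 the list median turned to -0.15.

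Of 11 auxin genes 4 were called higher and 1 lower (median 0.98). *Auxin-induced protein 15A* averaged 2.17 (SE 0.39), and *YUC10*, of a family of auxin synthesis enzymes, had 0.451 to 5.09 FPKM in treated and 3.69 to 10.2 FPKM in water buds (average -1.40, SE 0.18, adjusted p = 4.26e-05), with a gene average of -0.74. Of 6 cytokinin genes 1 was called higher and 1 lower (median 0.57, but -0.06 without 3 dat). The higher one, *ARR16* (TR33688|c2_g1_i5), had at most 3.78 FPKM and lost its call in 12 of the fits that left out 1 library (averages of 0.96 to 1.13) and when trees were blocked in limma (adjusted p = 0.0502), its gene averaged 0.65, and the lower one, *APRR5* (TR3903|c0_g1_i1), is a clock gene. The cytokinin synthesis genes *IPT3* and *LOG5* and the receptor *HK4* X1 were not called, with averages of 0.46, 0.89, and -0.08 (*LOG5* was at 1.00 without treated tree 6 at 3 dat), and *IPT3* had differences of 1.84, 0.70, and -1.15 (adjusted p = 0.00469 between days). Of 14 abscisic acid genes 2 were called higher and 1 lower (median 0.42). *Abscisic acid 8'-hydroxylase 4* (TR34963|c1_g1_i3), which breaks down this hormone of dormancy, ran from 11.9 to 43.1 FPKM with a median of 32.3 in treated and from 2.41 to 18.9 FPKM with a median of 6.59 in water buds, and had a day 0 median of 0.579 FPKM (average 1.64, SE 0.18, adjusted p = 7.94e-06).

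**Figure D5:**
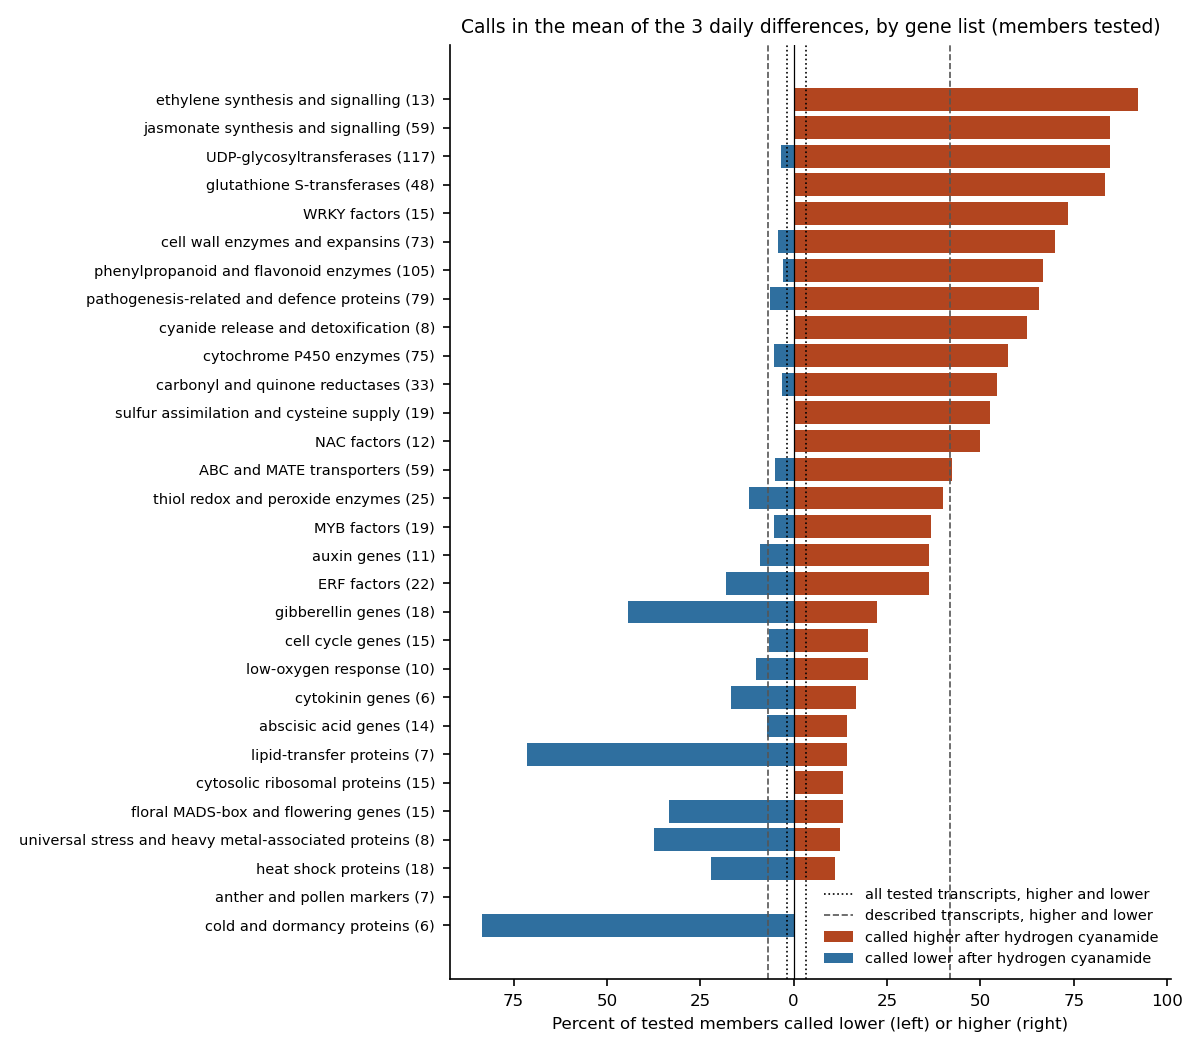
Percent of the tested members of each gene list called higher (red, to the right) or lower (blue, to the left) in the average over days, with the number tested in brackets and dotted lines at the 3.26% and 1.73% of all tested and dashed lines at the 41.9% and 6.98% of all described transcripts. Ethylene, jasmonate, UDP-glycosyltransferase, and glutathione S-transferase lists lie at the top with over 80% called higher, and cold and dormancy proteins at the bottom with 5 of 6 called lower.

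The transcripts that fell included proteins of the dormant state. Of 6 transcripts of cold and dormancy proteins, from 4 assembled genes, 5 were called lower and 1 did not pass (median -1.42). The 5 came from 3 assembled genes. *Dehydrin 2* (TR26333|c2_g1_i8), a protective protein that accumulates in cold and drying tissue, had 920, 1073, and 848 FPKM in treated and 2755, 2841, and 2670 FPKM in water buds at 1 dat, and 102, 110, and 88.2 FPKM against 524, 657, and 530 FPKM at 6 dat. Day 0 buds had a median of 4965 FPKM, above every treated and water library. The libraries of a day did not overlap at 1, 3, or 6 dat, the differences were -1.55, -2.19, and -2.50 (average -2.08, SE 0.14, adjusted p = 9.08e-08), and the 7 isoforms together averaged -2.03.

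Of 7 lipid-transfer proteins, which bind lipids and often sit outside the cell, 5 were called lower, 1 higher and 1 did not pass (median -1.40). The extremes lay far apart. *Lipid-transfer protein 2* (TR24771|c0_g1_i1) ran from 1.83 to 190.5 FPKM with a median of 65.3 in treated and from 146 to 587 FPKM with a median of 496 in water buds (average -3.38, SE 0.25, adjusted p = 2.02e-07). *Lipid-transfer protein 1* (TR20712|c0_g1_i1) ran from 18.6 to 139 FPKM with a median of 35.2 in treated and from 0.283 to 4.13 FPKM with a median of 0.819 in water buds (average 5.15, SE 0.29, adjusted p = 2.04e-08). Of 8 universal stress and heavy metal-associated proteins 1 was called higher and 3 lower (median 0.07, but -0.12 with a pseudocount of 0.1 FPKM and -0.32 with no filter on low values). *HIPP26* (TR26965|c2_g1_i1), an isoprenylated protein that binds metals, was the steadiest of the lower ones, with 15.4 to 33.0 FPKM (median 21.2) in treated and 71.3 to 127 FPKM (median 82.1) in water buds and differences of -2.02, -1.85, and -2.16 (average -2.01, SE 0.14, adjusted p = 1.15e-07). A universal stress protein (TR23093|c0_g1_i3) had a median of 3.41 FPKM in treated and 152 FPKM in water buds, and 393 FPKM at day 0 (average -3.31, SE 0.25).

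The lowest average of the transcripts named here was that of a monogalactosyldiacylglycerol desaturase (TR26734|c4_g2_i1), an enzyme that desaturates chloroplast lipids. It stood at 60.2, 54.1, and 49.5 FPKM in treated and 149, 172, and 171 FPKM in water buds at 1 dat, at 62.8, 20.8, and 59.5 FPKM against 247, 189, and 239 FPKM at 3 dat, and at 3.60e-06, 0.000473, and 0.0178 FPKM against 89.2, 70.4, and 70.5 FPKM at 6 dat. The average was -3.73 (SE 0.17, adjusted p = 2.50e-09), with differences of -1.58, -2.37, and -7.24. Its 16 isoforms summed, of which it holds 83%, gave -1.40, -1.75, and -1.42 (average -1.52). The step at 6 dat thus appeared in the value of this isoform and not in the sum. Whether the isoform itself changed or shared reads were divided otherwise was not tested.

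Floral MADS-box and flowering genes had 2 of 15 tested members called higher and 5 lower. Their median of 0.12 was negative in 14 of the alternative fits, median-ratio rescaling and 8 that left out 1 library among them. *Flowering locus T1* (TR13386|c0_g1_i1), of the family of the flowering signal, ran from 1.21 to 12.6 FPKM with a median of 4.66 in treated and from 6.34 to 31.2 FPKM with a median of 10.97 in water buds (average -1.58, SE 0.23, adjusted p = 0.000135). *AGL62* (TR33925|c0_g1_i1), a MADS-box factor of endosperm in *Arabidopsis*, had 2.19 to 8.46 FPKM in treated and 0 to 1.97 FPKM in water buds (average 2.48, SE 0.27, adjusted p = 8.75e-06).

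Of 18 heat shock proteins 2 were called higher and 4 lower (median 0.25, but -0.49 without 1 dat), and their median was 0.46 at 1 dat, 0.18 at 3 dat, and -1.34 at 6 dat. *Heat shock 70 kDa protein 8* (TR1668|c0_g1_i1) had differences of -0.18, -1.57, and -2.25 (average -1.33, SE 0.19). Of 15 cytosolic ribosomal proteins 2 were called higher and 13 did not pass (median 0.38), and of 15 cell cycle genes 3 were called higher and 1 lower (median 0.27). The highest of the cell cycle list was *histone H2B.3* (TR41395|c0_g1_i1) with differences of 2.92, 1.49, and 0.17, and the lowest *cyclin D3-1* (TR24749|c0_g1_i3) with an average of -1.02 and -0.84 for its gene. Its call was lost, at -0.93 to -0.99, without treated tree 4 at 1 dat, 5 at 3 dat, or 5 at 6 dat, and without water tree 6 at 1 dat, 6 at 3 dat, or 4 at 6 dat. Of 10 low-oxygen response genes 2 were called higher and 1 lower (median 0.63). *Non-symbiotic hemoglobin* (TR9690|c0_g1_i2), which scavenges nitric oxide, ran from 318 to 2186 FPKM with a median of 459 in treated and from 65.9 to 220 FPKM with a median of 103 in water buds, with differences of 3.96, 2.85, and 0.92 (average 2.58, SE 0.17, adjusted p = 8.19e-08).

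Markers of particular tissues did not shift together. None of the 7 anther and pollen transcripts passed limma's test (1 had an unadjusted p under 0.05, median 0.37, but -0.21 without 3 dat), and their median difference was 0.00 at 1 dat, 1.91 at 3 dat, and -0.77 at 6 dat. Of the 2 green tissue markers, *psbY* of photosystem II (TR15638|c0_g1_i1) was called higher, with 7.78 to 47.1 FPKM in treated and 4.38 to 8.86 FPKM in water buds, and a chlorophyll a-b binding protein at 0.2% of the FPKM of its gene (TR33074|c5_g1_i2) was called lower, a call lost at -0.92 to -0.99 without treated tree 4 at 1 dat, treated tree 5 or 6 at 6 dat, or water tree 4 at 1 dat, and its gene averaged -0.33. The part of bud stage or tissue shares in the averages was not tested.

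A transcript carried by a single day was defined as at least 1 at that day and under 0.5 at the others, which with an average of at least 1 needs a large value at that day. This held for 20 called transcripts, for 6 assembled genes with isoforms summed and for 7 transcripts with a pseudocount of 1 FPKM, while a definition by the day's share of the summed differences gave 201. Of the 9 higher ones 7 were carried by 1 dat and 2 by 6 dat, and of the 11 lower ones 2 by 1 dat, 4 by 3 dat, and 5 by 6 dat. A zinc finger protein with A20 and AN1 domains (TR12594|c0_g2_i4), of a family that takes part in stress responses, stood at 7.34, 8.15, and 14.6 FPKM in treated and at most 0.0330 FPKM in water buds at 1 dat. Its differences were 4.30, 0.12, and -0.62 (average 1.27, SE 0.36, adjusted p = 0.0224, and adjusted p = 0.0152 between days), with an average of 0.98 and no call when treated tree 4 at 6 dat was left out. An L-type lectin receptor kinase (TR8818|c0_g2_i1) had differences of 2.65, 0.45, and 0.43 (average 1.18) and was not called with a pseudocount of 0.1 FPKM (adjusted p = 0.0557 from limma) or 1 FPKM (average 0.89). A *cytochrome P450 98A2* isoform (TR26971|c1_g2_i5), of the family that hydroxylates phenolic esters, had 3.53, 0.0717, and 1.98 FPKM in treated and 16.7, 11.2, and 15.7 FPKM in water buds at 6 dat (difference -3.05), against 0.05 and -0.46 at the days before, while its 14 isoforms together averaged -0.05 and the isoform itself -0.88 without treated tree 5 at 6 dat. Of the 20 transcripts 8 were called in the test between days, and 11 belonged to a gene called in the same direction when isoforms were summed. With treated tree 5 at 3 dat left out 32 transcripts met the definition, and with water tree 6 at 6 dat left out 33.

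The difference between treated and water buds changed with the day in 1127 tested transcripts (1.79%, limma's F test over the 3 daily differences, adjusted p of at most 0.05). They held 279 of the 2050 called higher (13.6%), of which 192 were largest at 1 dat, 52 at 3 dat, and 35 at 6 dat, and 45 of the 1088 called lower (4.14%), of which 28 were largest at 6 dat. The other 803 were not called in the average. In 108 of the 1127 the difference was at least 1 in both directions on different days, and among those not called 56 were at least 1 higher at 1 dat and at least 1 lower at 6 dat, and 14 the reverse. Of the 753 transcripts at least 1 higher at each day 49 were called in this test, and of the 242 lower ones 2. Leaving out single libraries gave 620 to 1242. Leaving out treated tree 4, 5, or 6 at 1 dat gave 686, 692, and 630, and leaving out water tree 4 or 5 at 1 dat gave 715 and 657. Leaving out treated tree 5 at 6 dat gave 721, water tree 4 or 5 at 6 dat 620 and 744, and single libraries of 3 dat 830 to 1242. For 1 dat the study used 2 replicates per group without naming them, and the number was 406 when both libraries of tree 4 at 1 dat were left out.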

How the data were processed

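The series holds mRNA sequencing of sweet cherry flower buds in 21 libraries, of which the 9 hydrogen cyanamide and 9 water libraries were compared. Per the labels and the study's methods, the authors made stranded libraries, assembled them with Trinity after trimming by Trimmomatic 0.33, and used STAR (version not given in the sources used here) for mapping and eXpress 1.5.1 for the levels. The deposited values are FPKM, without counts, so the read depth of each library is unknown here and counting intervals cannot be given. No column of the table belonged to another series. Names of transcripts are the authors' matches to proteins of other species, taken from their tables, whose fold changes were not used. Part of these tables was held here, and the described transcripts lean to the higher side (1447 of 3454 tested were called higher and 241 lower), so counts of the lists are not independent evidence of their direction.

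For transcripts averaging 0.5 FPKM or more, log2(FPKM + 0.5) was fitted with limma 3.58.1 under R 4.3.3 (variances moderated with a trend), with 6 group means and the mean of the 3 daily differences as contrast. Standard errors and adjusted p-values are from this fit. The study itself used EBSeq on counts. Per the labels, branches of trees 4, 5, and 6 were taken for both groups, so treated and water samples can be paired by tree. The main fit held no term for the tree, which entered only as a block in an alternative fit. After subtraction of group means, r across transcripts was -0.0145 to 0.0592 for the treated and water libraries of 1 tree and day, and -0.119 to 0.126 for libraries of different trees. Replicates are branches of different trees.

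The members, the 31 lists (1062 transcripts, 887 tested) and the tests were chosen with earlier results of these data known. Transcripts to be named were every transcript of the study's list of discussed genes, the 15 highest and 15 lowest averages and the 8 highest and 8 lowest smallest daily differences with a description, without overlap and with at least 5 FPKM in the higher group, the 4 highest and 4 lowest of each single day, and the extremes of each list. This gave 107 transcripts, 106 of them tested, and the text gives most of them. As alternatives, pseudocounts of 0.1 and 1 FPKM, unfiltered values or a minimum of 1 FPKM, median-ratio rescaling, isoforms summed, the tree as a block, all 21 libraries, no fold threshold, other limits of the classes, and leaving out each day, each library, or tree 4 at 1 dat were tried. The fit was tested on simulated data. Tables and figures were made with pandas 2.3.3 and matplotlib 3.10.9 under Python 3.11.15.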

Additional observations from a re-analysis of the deposited data

Results flagged for a closer look

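Of the 106 named transcripts tested, 25 had a treated minus water difference that changed between 1, 3, and 6 dat (adjusted p of at most 0.05 in limma's F test over the 3 daily differences). In most of those higher in treated buds the difference was largest at 1 dat. They were the 2-methylene-furan-3-one reductase (adjusted p = 0.00718), the glutathione S-transferase TR33680|c0_g4_i3 (adjusted p = 0.00886), *OPR2* (adjusted p = 0.00126), *ACO* (adjusted p = 0.00422), gibberellin 2-beta-dioxygenase 1 (adjusted p = 0.0335), the non-symbiotic hemoglobin (adjusted p = 0.00407), pleiotropic drug resistance protein 7 (adjusted p = 0.0058), ATP sulfurylase 1 (adjusted p = 0.0378), *CAS* (adjusted p = 0.00199), *SAMS 3* (adjusted p = 0.0178), *GRX* (adjusted p = 0.0253), *psbY* (adjusted p = 0.042), the A20 and AN1 zinc finger protein (adjusted p = 0.0152), and *NIT4A* (adjusted p = 0.0118). A (+)-neomenthol dehydrogenase (TR13670|c2_g2_i11), a reductase of terpene ketones, had differences of 6.96, 5.48, and 0.98 at 1, 3, and 6 dat (adjusted p = 0.00407). Another *ACO* homolog (TR13597|c1_g1_i7) had 6.596, 4.389, and 1.065 (adjusted p = 0.00714), and the glucanase *1,3BG*, a wall enzyme, 2.94, 1.97, and 0.72 (adjusted p = 0.0155).

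*EXPA1* was largest at 3 dat (adjusted p = 0.00295), and *IPT3* was higher at 1 dat and lower at 6 dat (adjusted p = 0.00469). Among the lower transcripts, the difference grew with the day for the monogalactosyldiacylglycerol desaturase isoform (adjusted p = 3.09e-05), lipid-transfer protein 2 (adjusted p = 0.015), and myb-related protein 308 (adjusted p = 0.00557). The summed isoforms of the desaturase gene gave -1.40, -1.75, and -1.42 and did not grow steadily. The difference also grew for a cell wall protein gp1 (TR13929|c0_g1_i1), with -0.58, -1.87, and -2.07 (adjusted p = 0.0423), and lay at 6 dat for cytochrome P450 98A2 (adjusted p = 0.0393). A ribosomal lysine methyltransferase isoform (TR13345|c4_g4_i12), which holds 9.8% of the FPKM of its gene, was lower at 1 dat, with -2.81, -0.08, and -0.44 (adjusted p = 0.0359). Its gene averaged -0.14, and its own average of -1.11 came to -0.94 and -0.95, without a call, when treated tree 4 at 1 dat or treated tree 6 at 6 dat was left out.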

How the results depend on the processing

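Main counts were 2050 called higher, 1088 lower, 2940 with the same direction, 995 at least 1 at each day, 20 carried by a single day, and 1127 changing between days. With isoforms summed these were 1162, 491, 1558, 543, 6, and 2217, of fewer features. A pseudocount of 0.1 FPKM gave 2465 higher, 2018 lower and 1733 at least 1 at each day, a pseudocount of 1 FPKM 561 lower, 1942 with the same direction and 7 carried by a single day, a minimum of 1 FPKM 11 carried by a single day, and median-ratio rescaling 704 lower. Without a fold threshold 6110 and 5964 passed, at least 0.5 at each day held for 2270, and 201 were carried by a single day when that was defined by its share of the summed differences. Without tree 4 at 1 dat 406 changed between days. With the tree as a replicate block 2029 were called higher, 1056 lower, and 923 changed between days, and of the named transcripts only *ARR16* lost its call. Leaving out each library in turn gave 1844 to 2179 higher, 937 to 1279 lower, 2605 to 3220 with the same direction, 865 to 1095 at least 1 at each day, 16 to 33 carried by a single day, and 620 to 1242 changing between days. The average changed sign without 1 dat for the A20 and AN1 zinc finger protein (-0.25) and *IPT3* (-0.23), and for *HK4* X1, whose average is near 0, without 1 dat (0.47), under median-ratio rescaling (0.013), without tree 4 at 1 dat (0.047), and over -0.28 to 0.06 when single libraries were left out. Of the named transcripts' values, 1871 leave-one-out and 1101 other values kept direction and call, 30 and 44 lost the call, and 5 and 8 gained it. The cause of these changes was not tested. The table gives no counts, so low values have an unknown error, and 3 libraries per group and day limit the test between days.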

Other observations

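Outside the gene groups described above, several transcripts of kinases, transporters and wall proteins were called lower with no overlap between the 9 treated and 9 water libraries. Lack of overlap was a condition for naming them, which 71 of the 1088 transcripts called lower met (6.53%), against 0.389% of all tested. A sugar transporter of the ERD6 type (TR12684|c0_g1_i16), of a family that moves sugars out of the vacuole in *Arabidopsis*, ran from 76.4 to 191 FPKM with a median of 129 in treated and from 236 to 447 FPKM with a median of 295 in water buds (average -1.29, SE 0.14, adjusted p = 6.71e-06 from limma). The proline-rich receptor kinases PERK2 (TR12250|c2_g1_i1 and TR12250|c2_g3_i1) averaged -1.24 and -1.36, a G-type lectin receptor kinase (TR12566|c1_g1_i1) averaged -1.40, and the cell wall protein gp1 averaged -1.51, all at medians under 10 FPKM in both groups. A dirigent protein (TR14245|c0_g1_i1), of a family that guides the coupling of phenolic alcohols, had a median of 11.7 FPKM in treated and 22.0 FPKM in water buds (average -1.08, SE 0.11), and was not called after median-ratio rescaling (-0.964) or without 6 dat (-0.847). Of the 97 named transcripts that were called, 53 of the 58 higher ones and 23 of the 39 lower ones belonged to an assembled gene that was also called in the same direction when its isoforms were summed. The other lower ones included a universal stress family isoform (TR26517|c6_g1_i3), with an average of -1.23 against 0.30 for its gene, a serine racemase isoform (TR26983|c3_g1_i12), with -1.24 against -0.13, and a protein phosphatase 2C 59 isoform (TR26830|c1_g2_i1), with -1.89 against -0.23.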
